A study of Homo sapiens with 9 samples.

Results

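The 10 genes described here mark the melanocyte lineage or take part in pigment synthesis: MITF, SOX10, PAX3, TYR, TYRP1, DCT, PMEL, MLANA, OCA2 and CITED1. They were taken by name, through their Ensembl gene identifiers, from a count table of 57820 gene identifiers, and all 10 were found. They were measured by RNA sequencing in tumours grown in nude mice from A375, a long-established melanoma cell line of human origin that carries mutant BRAF. All cells carried a doxycycline (Dox) inducible construct, and each library was made from RNA of 2 pooled tumours of similar kind, taken at day 30. The 3 groups of 3 libraries were no-Dox tumours, which had the RNF4 construct switched off (libraries T1, T4 and T12), RNF4 plus Dox tumours, which received Dox in their water from day 3 (T2, T5 and T13), and RING mutant plus Dox tumours, whose construct codes for RNF4 without catalytic activity (T3, T6 and T14). RNF4 is a ubiquitin ligase that recognises proteins modified with SUMO. The mutant group and the RNF4 group both had Dox and the control group had none, so an effect of Dox itself and an effect of the constructs cannot be told apart in the comparisons with the control. The series text speaks of tumours with GFP as the control, whereas the titles of the control libraries name the RNF4 construct without Dox.

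Melanocytes arise from the neural crest. SOX10 and PAX3 are transcription factors of that origin which activate MITF, the basic helix-loop-helix transcription factor that governs the lineage, and MITF in turn activates the genes of pigment synthesis. TYR (tyrosinase) carries out the first, rate-limiting step from tyrosine to melanin, and TYRP1 and DCT (dopachrome tautomerase) are related enzymes of later steps. PMEL forms the fibrils on which melanin is laid down inside the melanosome, MLANA is a melanosome membrane protein used as a melanoma marker, OCA2 is an ion transporter of the melanosome membrane, and CITED1 is a transcriptional co-regulator made in pigment cells. Melanoma cells can lose much of this programme, and a state with low MITF and high AXL is well known.

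MITF is known to activate pigment genes through an E-box variant in their promoters, the M-box. RefSeq windows from 250 bases before to 50 bases after the gene start (GRCh38.p14) were at hand for 8 of the 10 genes, 13 windows in all, and none for SOX10 and PMEL. They were searched on both strands for the letters TCATGTG, the M-box core described for MITF in pigment genes, and for CATGTG, which lies within it, CACGTG and TGACGTCA. Of 35116 windows of 300 bases in the table, 2.92% held TCATGTG. The windows of TYR, TYRP1 and DCT held it, DCT at 2 places, and those of MITF, PAX3, MLANA, OCA2 and CITED1 did not. The sequences are shown with the motif in capitals, because these 3 enzymes, like PMEL, were high in 1 library, T14. They are written 5′ to 3′ on the gene's strand, and the motif begins at position -105 relative to the gene start of TYR, -145 for TYRP1, and -215 and -135 for DCT. CATGTG occurred in 11.1% of all windows, and outside the 3 enzymes in 1 window each of OCA2 and CITED1. CACGTG occurred in 7.26% of all windows and in none of these 13. Of the 3 MITF windows, the one at the start used in melanocytes held TGACGTCA, the palindrome bound by the CREB family, at position -152, and 1.85% of all windows held it. A match is a description of letters and not a measured binding site.
TYR, chr11:89177759-89177787, plus strand: agaaaagtcagTCATGTGcttttcagagg
TYRP1, chr9:12693213-12693273, plus strand: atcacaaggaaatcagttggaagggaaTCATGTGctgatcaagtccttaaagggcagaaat
DCT, chr13:94479864-94479924, minus strand, motif on the opposite strand: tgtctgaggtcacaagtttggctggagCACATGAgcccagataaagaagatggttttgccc
DCT, chr13:94479784-94479844, minus strand: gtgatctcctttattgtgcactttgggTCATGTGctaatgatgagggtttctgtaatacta
MITF, chr3:69936413-69936474, plus strand: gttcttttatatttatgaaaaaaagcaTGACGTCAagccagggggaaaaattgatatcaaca
By the GENCODE 29 annotation, the TYR stretch lies within an exon of TYR, the TYRP1 and MITF stretches lie in introns of longer transcripts of those genes, and both DCT stretches lie upstream of the gene.

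Libraries held between 16416426 and 28934692 counts. CPM here are counts scaled by each library's sum over the genes kept for testing, times its TMM factor (trimmed mean of M-values), so that libraries can be compared. RNF4, the gene of the constructs, was 33.4, 52.0 and 43.2 CPM in the no-Dox libraries (T1, T4, T12) and 380.1, 413 and 454 CPM in the RNF4 plus Dox libraries (T2, T5, T13). Of the libraries labelled as RING mutant, it was 47.0 CPM in T3, 559 CPM in T6 and 63.5 CPM in T14. Thus T3 and T14 were near the level without Dox, and T6 alone was near the RNF4 group. Every direction drawn from the libraries labelled as RING mutant carries that mismatch. T1 and T2 had the lowest TMM scaling factors, 0.726 and 0.891 against 1.02 to 1.08 in the other 7 libraries.

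Averaged over the 9 libraries, the lineage transcription factors lay above the pigment genes per kilobase of exon. SOX10 was highest, with 15.7 ± 3.51 CPM per kilobase (SD, n = 9 libraries), which placed it at percentile 79.0 of the protein-coding genes kept for testing. MITF followed with 2.08 ± 0.589, CITED1 with 2.05 ± 2.54 and PAX3 with 1.50 ± 0.157 CPM per kilobase. MITF and CITED1 were closer to each other than their spread over libraries. PAX3 varied less, and its range of 1.28 to 1.82 overlapped that of MITF, 1.47 to 3.08. The products of the melanosome came next, with PMEL at 0.612 ± 0.757, MLANA at 0.437 ± 0.129 and TYRP1 at 0.368 ± 0.680 CPM per kilobase, again with overlapping spreads. OCA2 had 0.148 ± 0.104, DCT 0.132 ± 0.296 and TYR 0.0640 ± 0.161 CPM per kilobase, and no order can be read among these 3. MITF thus lay at percentile 32.3 of the protein-coding genes and TYR at percentile 0.924, on the mean over libraries. T14 had another order, with PMEL at 2.61 and TYRP1 at 2.17 CPM per kilobase above MITF at 1.55 and PAX3 at 1.28. AXL, the receptor of the MITF-low state, had 436 to 935 CPM in the same libraries, not scaled by exon length. It is 1 of 15 genes listed for that state, whose mean levels ran from 1.39 CPM (POU3F2) to 3786 CPM (TGFBI). In these bulk tumours, fewer cells that make a transcript and less transcript in each cell cannot be told apart.

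**Figure D1:**
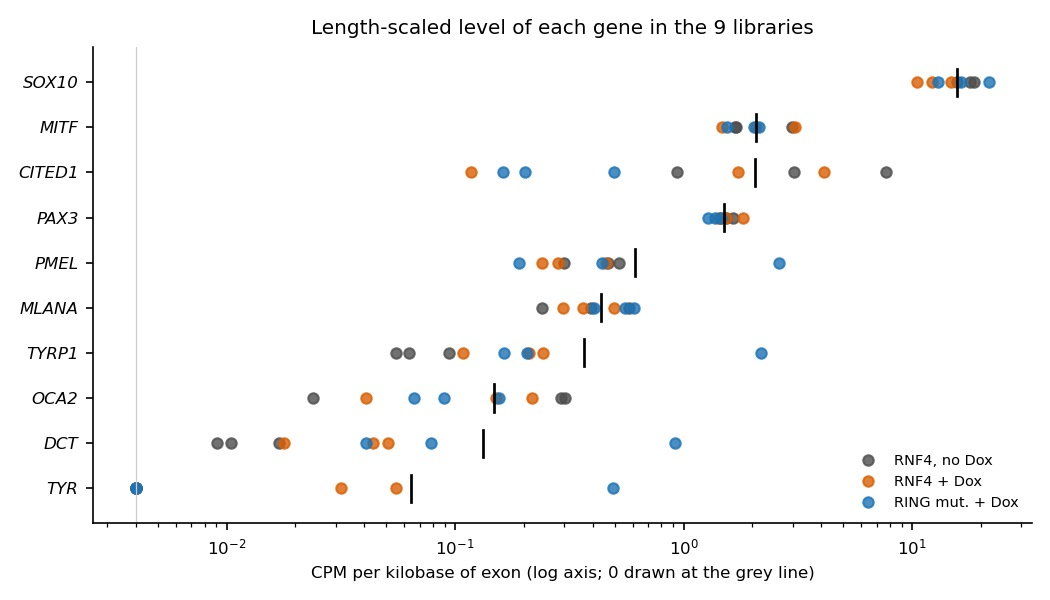
Level of each of the 10 genes in CPM per kilobase of exon (log axis) in the 9 libraries, coloured by group, with the mean over libraries as a black bar and 0 drawn at the grey line. SOX10 has the highest mean, 15.7, and TYR the lowest, 0.0640, with a single high library for TYR, DCT, TYRP1 and PMEL.

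The groups were compared with edgeR's quasi-likelihood F-test over 18618 genes that passed a filter on low counts. Of the 10 genes 8 passed it, and TYR and DCT did not. With a Benjamini-Hochberg adjusted p under 0.05 as a call, none of the 8 was called in any of the 3 comparisons or in the test of any difference among groups, against a background of 0% of all genes in each. At an unadjusted p under 0.05 the counts were 0 of 8 for RNF4 with Dox against no Dox (0.596% of all genes), 2 of 8 for RNF4 with Dox against the RING mutant (1.35%), 2 of 8 for the RING mutant against no Dox (1.75%) and 2 of 8 for any difference (1.1%). Each of these pairs was TYRP1 and CITED1. TYRP1 passed the filter through libraries with Dox, where it was higher, so its part in these counts is partly set by the filter. DESeq2, run as another tool, gave TYRP1 no p-value and called none of the other 9. RNF4 itself, with a log2 change of 3.28 ± 0.84 (SE) for RNF4 with Dox against no Dox, was not called by edgeR either (adjusted p = 0.99998), so a missing call here does not show that a gene stayed the same.

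MITF did not separate the groups. It was 12.04, 21.4 and 12.1 CPM in the no-Dox libraries T1, T4 and T12, 10.6, 22.1 and 15.0 CPM in the RNF4 plus Dox libraries T2, T5 and T13, and 15.4, 14.7 and 11.1 CPM in T3, T6 and T14, the libraries labelled as RING mutant. Values are given in this order of libraries throughout. T4 and T5 were the high libraries, in different groups, and all 3 groups overlapped. The log2 change was 0.06 ± 0.33 (SE) for RNF4 with Dox against no Dox, 0.21 ± 0.33 against the RING mutant, and -0.15 ± 0.33 for the RING mutant against no Dox. The sign of each of these turned when 1 library was left out (T1, T12 or T5, T5, and T4, in that order).

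Of SOX10, MITF and PAX3, SOX10 had the largest changes relative to their standard errors in both comparisons of RNF4 plus Dox, but not for the mutant against no Dox (log2 change -0.03 ± 0.23, SE). It was 58.5, 66.4 and 69.6 CPM in the no-Dox group, 39.0, 54.9 and 45.6 CPM in the RNF4 plus Dox group, and 80.9, 61.0 and 48.4 CPM in the libraries labelled as RING mutant. All 3 RNF4 libraries with Dox lay below all 3 without Dox, while the RING mutant group, led by T3, overlapped both. Of all genes tested, 2.32% had groups that did not overlap in this comparison, and 1.44% were lower with RNF4 and Dox. The group means were 46.5 ± 7.98 CPM (SD, n = 3) with RNF4 and Dox and 64.8 ± 5.73 CPM in the no-Dox group, a log2 change of -0.48 ± 0.23 (SE), with an unadjusted p of 0.0604 and an adjusted p of 0.99998 in edgeR. Against the RING mutant the log2 change was -0.45 ± 0.23. The authors' deposited table gives SOX10 a log2 change of -0.485 for RNF4 with Dox against no Dox. The direction against no Dox held under every alternative run, with log2 changes from -0.62 to -0.37.

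PAX3 varied least of the 10 genes, by 1.42-fold from the lowest to the highest library. It was 13.1, 12.2 and 11.5 CPM in the no-Dox group, 11.3, 14.4 and 12.1 CPM in the RNF4 plus Dox group, and 11.6, 10.9 and 10.2 CPM in the libraries labelled as RING mutant. The groups overlapped. Log2 changes were 0.04 ± 0.20 (SE), 0.21 ± 0.20 and -0.17 ± 0.20 in the order of comparisons used for MITF.

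CITED1 spread over a wider range than any other gene with counts in every library save DCT, 65.5-fold from lowest to highest. It was 5.34, 13.5 and 1.65 CPM in the no-Dox group, 7.22, 3.05 and 0.207 CPM in the RNF4 plus Dox group, and 0.356, 0.875 and 0.284 CPM in the libraries labelled as RING mutant. All 3 RING mutant libraries lay below all 3 without Dox, and the RNF4 group reached from the level of the controls in T2 to the lowest value of all in T13. In the comparison of the RING mutant with no Dox, 3.78% of all genes had groups that did not overlap, and 2.58% were lower in the mutant. Counts in these libraries were 78, 422 and 42 without Dox against 6, 20 and 5 in the mutant group, a pooled ratio of 0.0710 with an exact 95% interval of 0.0478 to 0.102 that covers counting error only.

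The log2 change of CITED1 for the RING mutant against no Dox was -3.72 ± 1.15 (SE), with an unadjusted p of 0.00917 and an adjusted p of 0.99996 in edgeR. In the authors' deposited table the same comparison had a log2 change of -3.731 and an adjusted p of 0.0591. CITED1 was lower in 3 of 3 mutant libraries than in each control, and log2 changes over the alternatives ran from -4.40 to -2.73. For RNF4 with Dox against the mutant the log2 change was 2.74 ± 1.12 (edgeR unadjusted p = 0.0352, adjusted p = 0.99988), although the groups overlapped through T13. Without the low-count filter, edgeR called CITED1 in the mutant against no Dox (adjusted p = 0.00351), where 0.284% of 38388 genes were called. For RNF4 plus Dox against no Dox CITED1 had a log2 change of -0.98 ± 0.999, and 0.01 without T4. Within the mutant group CITED1 was 0.875 CPM (20 counts) in T6, the library with 559 CPM of RNF4, and 0.356 and 0.284 CPM (6 and 5 counts) in T3 and T14.

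**Figure D2:**
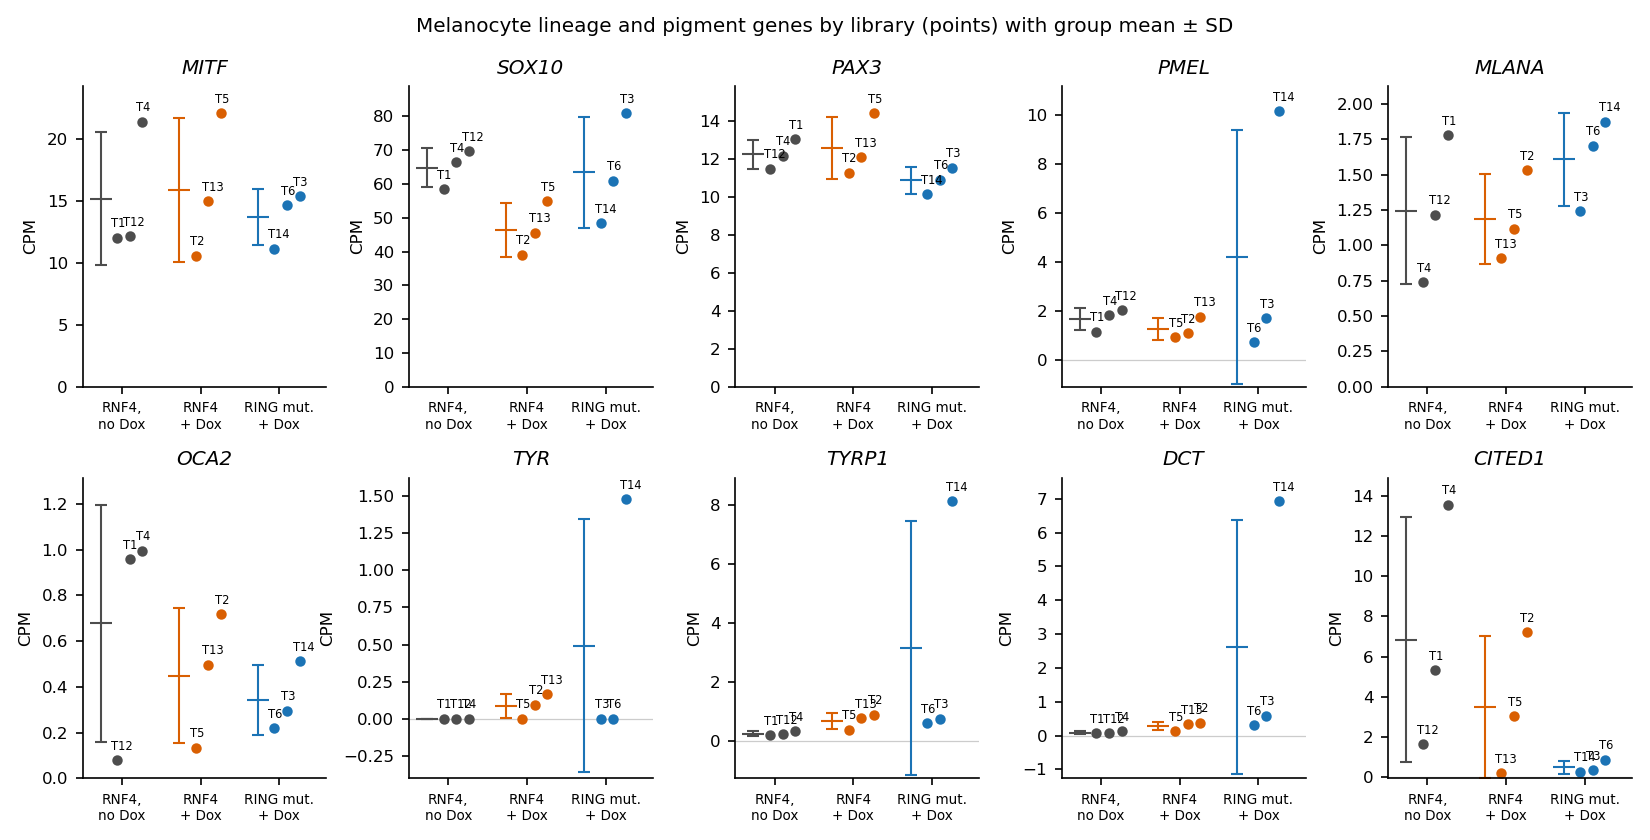
CPM of the 10 genes in each library (points, set in order of value within a group and named by library) with the group mean and SD (n = 3) as a bar at the left of each group. CITED1 is under 1 CPM in all 3 RING mutant libraries, and T14 stands alone for PMEL, TYR, TYRP1 and DCT.

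The pigment enzymes had few counts except in 1 library. TYR had 0 counts in 6 of 9 libraries, 2 counts in T2, 4 in T13 and 26 in T14, the last equal to 1.48 CPM. A count of 0 allows up to 0.0963 CPM in the deepest library without Dox (T4) and up to 0.205 CPM in T1. T14 held 81.3% of all TYR counts. Against a floor of 3 counts over the no-Dox group, the pooled TYR of the libraries labelled as RING mutant was 10.8-fold higher. The exact interval of the pooled ratio, with 0 counts without Dox, began at 8.15 and covers counting error only. All TYR counts of the mutant group came from T14, and T3 and T6 had 0 counts, as the no-Dox libraries did. Its pseudogene copy TYRL had 0 counts in every library.

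TYRP1 was 0.205, 0.353 and 0.236 CPM in the no-Dox group, 0.909, 0.403 and 0.786 CPM in the RNF4 plus Dox group, and 0.770, 0.612 and 8.13 CPM in the libraries labelled as RING mutant. All 6 libraries with Dox lay above all 3 without, and T14 was 8.94 times the next library. Log2 changes were 1.35 ± 0.98 (SE) for RNF4 with Dox against no Dox and 3.51 ± 0.99 for the RING mutant against no Dox, with unadjusted p-values of 0.202 and 0.00561 and adjusted p-values of 0.99998 and 0.99996 in edgeR. Of all genes, 0.875% lay wholly higher in the first of these comparisons and 1.2% in the second. The low-count filter kept TYRP1 through libraries with Dox, where its counts were higher. In the fit of only the 6 libraries of the first comparison TYRP1 did not pass it. Its separation and p-values are thus partly set by the filter and are given as a description. The counts were low, 3, 11 and 6 without Dox and 19, 9 and 19 with RNF4 and Dox. Their pooled ratio was 2.48 with an exact 95% interval of 1.44 to 4.42, which covers counting error only.

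DCT had the same order of groups at lower counts. It was 0.0684, 0.128 and 0.0786 CPM in the no-Dox group, 0.383, 0.134 and 0.331 CPM in the RNF4 plus Dox group, and 0.593, 0.306 and 6.93 CPM in the libraries labelled as RING mutant. Again all 6 libraries with Dox lay above the 3 without, by little in T5, and T14 was 11.7 times the next library. T5 had 3 counts against 4 in T4, so their order rests on the scaling. Of the genes that passed the filter, 0.875% lay wholly higher with RNF4 and Dox and 1.2% in the mutant, each against no Dox. DCT did not pass that filter. The counts were 1, 4 and 2 without Dox, 8, 3 and 8 with RNF4 and Dox, and 10, 7 and 122 in the mutant group, so T14 held 73.9% of them. The pooled ratio was 2.87 (exact 95% interval 1.15 to 8.07) for RNF4 with Dox against no Dox and 24.7 (11.7 to 62.5) for the mutant against no Dox. Both intervals cover counting error only and not the spread between libraries.

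Without the low-count filter, edgeR called DCT (log2 change 4.66, adjusted p = 0.00252) and TYRP1 (3.50, adjusted p = 0.00832) in the mutant against no Dox, beside CITED1. These are 3 of the 10 genes, where 0.284% of all 38388 genes with counts were called, and the same 3 differed among the groups (0.227%). None of the 10 was called in the other two comparisons without the filter (0.00781% of genes for RNF4 plus Dox against no Dox and 0.099% against the mutant). Neither enzyme was called once T14 was left out as well, a setting added after the data were seen. In that setting edgeR still called CITED1 (adjusted p = 3.23e-06, where 0.45% of 38000 genes were called). With the filter and without T14, edgeR did not call CITED1 in the mutant against no Dox (adjusted p = 0.99996). DESeq2 on all 9 libraries did not call it there either (adjusted p = 0.699). Without T14 and the filter, 1 of the 10 genes, CITED1, was also called for RNF4 plus Dox against the mutant (0.411%) and for any difference (0.676%), and none for RNF4 plus Dox against no Dox (0.184%). Without T14 the log2 change of TYRP1 was 1.33 for the mutant against no Dox and 0.02 for RNF4 with Dox against the mutant, in place of 3.51 and -2.17. So for TYRP1 the part of the difference that T3 and T6 carry was of the size seen with RNF4 and Dox, and the rest came from T14. For DCT, without T14 and the filter, the log2 change was 2.18 for the mutant and 1.49 for RNF4 plus Dox, each against no Dox.

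The melanosome proteins differed among themselves. PMEL was 1.16, 1.83 and 2.04 CPM in the no-Dox group, 1.1003, 0.941 and 1.78 CPM in the RNF4 plus Dox group, and 1.72, 0.743 and 10.2 CPM in the libraries labelled as RING mutant, so the groups overlapped and T14 was 4.98 times the next library. Its log2 change for the mutant against no Dox was 1.31 ± 0.80 (SE) with T14 and -0.47 without it. MLANA was 1.78, 0.738 and 1.22 CPM in the no-Dox group, 1.53, 1.12 and 0.910 CPM in the RNF4 plus Dox group, and 1.24, 1.71 and 1.88 CPM in the mutant group. T14 was highest for MLANA too, but only 1.05 times T1.

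OCA2 was 0.958, 0.995 and 0.0786 CPM in the no-Dox group, 0.718, 0.134 and 0.496 CPM in the RNF4 plus Dox group, and 0.296, 0.219 and 0.511 CPM in the mutant group. It overlapped in all comparisons and was not high in T14. Its counts summed to 47, 30 and 19 in the 3 groups, and its log2 changes (-0.57 ± 0.83, 0.40 ± 0.88 and -0.97 ± 0.86, SE, in the order of comparisons used for MITF) were about the size of their errors.

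**Figure D3:**
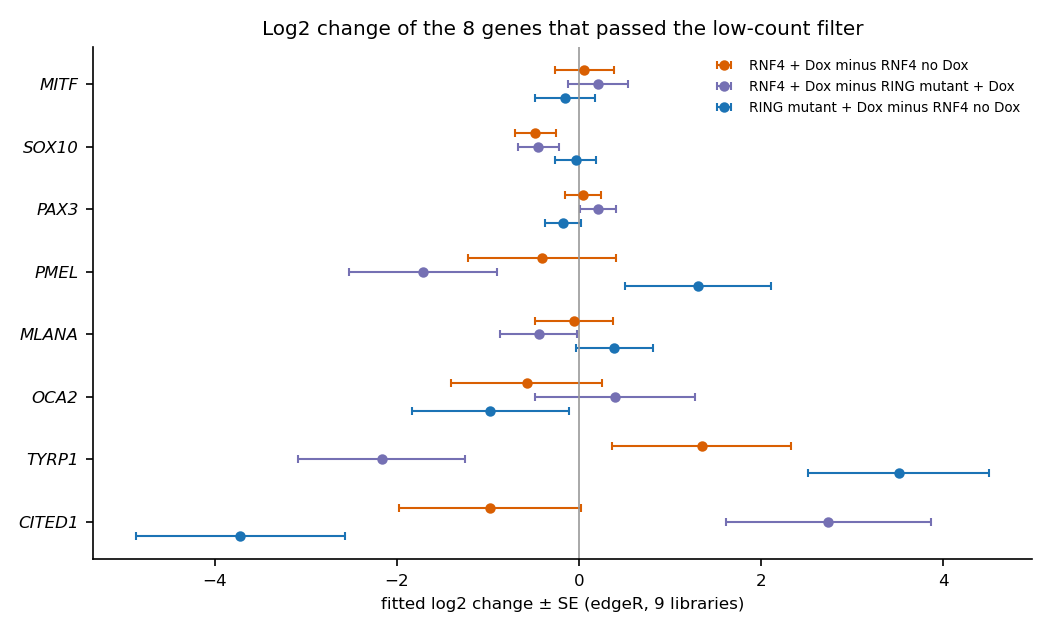
Fitted log2 change with its standard error for the 8 genes that passed the low-count filter, in the 3 comparisons (colours). SOX10 lies at -0.48 and -0.45 for RNF4 with Dox against no Dox and against the RING mutant, and TYRP1 at 3.51 and CITED1 at -3.72 for the RING mutant against no Dox; none was called.

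T14 stood apart for 4 of the 10 genes. The enzymes TYR, TYRP1 and DCT and the fibril protein PMEL were 4.98 to 11.7 times the next library there. The other melanosome genes did not stand out, with MLANA at 1.05 times the next library and OCA2 at 0.514 of the highest other library. The lineage factors were below the median of the other 8 libraries, MITF at 0.752, SOX10 at 0.811 and PAX3 at 0.859 of it. CITED1 in T14 was 0.121 of that median. Among all 18618 genes tested, 14.3% had their highest value in T14, but 0.478% were at least 2-fold, 0.22% at least 3-fold and 0.102% at least 4-fold above every other library there. TYRP1 and PMEL were 2 of the 19 genes at 4-fold or more. The others included the hair follicle genes KRT71 (10.1 times the next library), KRT25 (4.99), KRT85 (4.14) and TCHH, or trichohyalin (5.57), and the muscle genes MYH1 (5.35), CKM (4.70), ATP2A1 (4.74), NEB (4.43) and TTN (4.32).

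Other pigment genes outside the 10 were looked up from a list of 26 melanosome and pigment proteins. TRPM1 (melastatin), a cation channel of melanocytes, was 4.26 CPM in T14, 0.455 CPM in T13, 0.191 CPM in T2 and at most 0.0437 CPM in the other 6 libraries, a ratio of 9.37 to the next library. The transporters SLC45A2 and SLC24A5 were also highest in T14, at 1.48 and 1.65 CPM, 1.99 and 1.90 times the next library. TRPM1, SLC45A2 and SLC24A5 were singled out after their values were seen. By contrast GPNMB, RAB38 and GPR143, also on that list, were at 0.730, 0.427 and 0.668 of the highest other library in T14. Of the 24 genes of the list that passed the filter, 3 were highest in T14, where 14.3% of all genes were, and none by 2-fold. TRPM1 and SLC45A2 did not pass the filter. On the list of lineage factors and receptors, 3 of 13 tested genes were highest in T14, where 14.3% of all genes were, and none by 2-fold. MC1R, the melanocortin receptor of pigment cells, also singled out after its values were seen, was 12.2 CPM there, 1.38 times the next library.

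Markers of hair and muscle were high in T14 as well. A sum over 9 genes of the hair inner root sheath, a list made after the data were seen, was 159 CPM in T14, 36.2 CPM in T13 and 0.762 to 4.38 CPM in the other 7 libraries, and 8 of the 9 genes were highest in T14. KRT25 alone was 51.8 CPM in T14, 10.4 CPM in T13 and at most 1.24 CPM elsewhere. Of 12 hair shaft keratins, also listed after the data were seen, 9 were highest in T14, while KRT81 was at 102 to 273 CPM in all libraries and not high there. A sum over 9 skeletal muscle genes was 772 CPM in T14, 209 CPM in T13, 108 CPM in T2 and 13.3 to 42.9 CPM in the other 6, and all 9 had counts in T14. The actin ACTA1 and the myosin MYH1 led it, at 206 and 139.9 CPM in T14. TYR counts occurred in T14, T13 and T2 alone, the 3 libraries with the highest muscle sums. With 4 counts in T13 and 2 in T2, no order below T14 can be read. T13, second for both sums, was not second for PMEL, TYRP1 or DCT. It had 1.78, 0.786 and 0.331 CPM of these, against 2.04 CPM in T12, 0.909 CPM in T2 and 0.593 CPM in T3.

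Markers of other cells stood out less in T14. Keratinocyte genes of the skin surface summed to 176 CPM in T14, within the range of 72.7 to 533 CPM over the libraries, with T13 highest. They were led by KRT10 and by KRT14 of the basal layer, which was 183 CPM in T13 and 43.8 CPM in T14. Leukocyte genes, led by CD74 and LYZ, summed to 192 CPM in T14 and 99.0 to 144 CPM elsewhere, and fibroblast genes, led by the collagens COL1A1 and COL3A1, to 3963 CPM in T14 and 577 to 3477 CPM elsewhere. Schwann cell genes, led by PMP22 and CDH19 of a cell type that shares SOX10 with melanocytes, summed to 64.1 to 146 CPM with T1 highest, and endothelial genes, led by CLDN5 and CDH5, to 8.42 to 41.9 CPM with T13 highest. The part that cells of the host or tissue at the tumour margin play in the pigment gene counts of T14 was not tested, and whether those reads came from mouse or human RNA was not tested either.

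**Figure D4:**
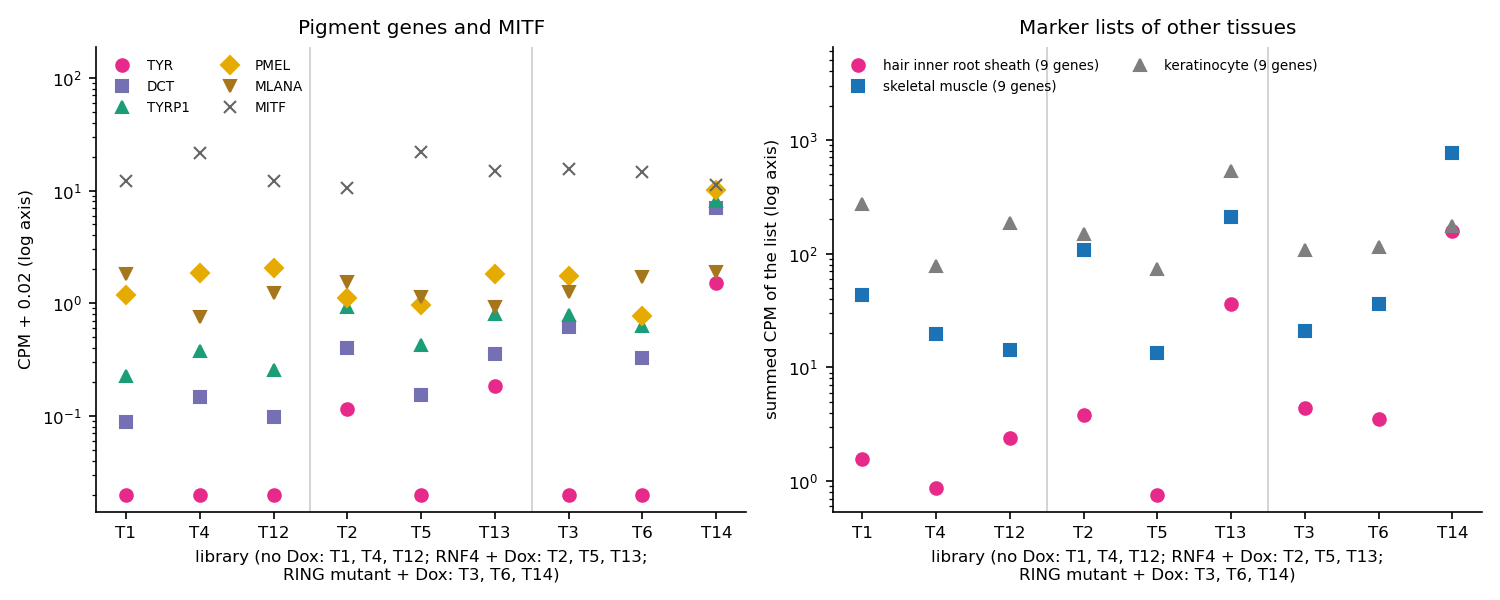
Left, CPM + 0.02 (log axis) of TYR, DCT, TYRP1, PMEL, MLANA and MITF in each library. Right, summed CPM (log axis) of the hair inner root sheath, skeletal muscle and keratinocyte lists, 9 measured genes each. T14, at the far right, is the highest library for TYR, DCT, TYRP1 and PMEL and for the hair (159 CPM) and muscle (772 CPM) sums, with T13 second for both sums.

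The wider pathway was read from 5 lists, 92 genes in all, of which 85 were tested. In edgeR none was called in any comparison, with 1, 3 and 2 genes at an unadjusted p under 0.05 in the order of comparisons used for MITF (0.596%, 1.35% and 1.75% of all genes), and DESeq2 called none. Of 13 tested lineage transcription factors and receptors, 5 had a log2 change above 0 for RNF4 with Dox against no Dox (38.5%, where all genes gave 44.3%), with a median of -0.0036 against -0.03 for all genes. ERBB3, a neuregulin receptor known as a target of SOX10, had the smallest p there, with a log2 change of -0.77 ± 0.32 (SE, edgeR unadjusted p = 0.0358). It was 15.9, 20.2 and 25.4 CPM in the no-Dox group and 7.75, 16.3 and 11.99 CPM in the RNF4 plus Dox group, so T5 overlapped the controls. SOX5, a SOX factor of the neural crest, was 18.6, 28.1 and 19.4 CPM in the RNF4 plus Dox group, below all RING mutant libraries (33.2, 37.8 and 33.6 CPM), where 4.98% of all genes had groups that did not overlap and 2.27% were lower. Its log2 change was -0.66 ± 0.26 with an unadjusted p of 0.0275. The stem cell factor receptor KIT was 1.64, 2.21 and 1.38 CPM in the no-Dox group and 0.178, 0.612 and 1.48 CPM in the mutant group, which overlapped.

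The melanosome proteins other than the 10 genes gave 11 of 24 above 0 for RNF4 with Dox against no Dox, 14 of 24 against the RING mutant and 12 of 24 for the mutant against no Dox. The medians were -0.02, 0.03 and 0.01, against -0.03, 0.03 and -0.04 for all genes. RAB27A and MYO5A, which act together in moving melanosomes to the cell edge, both lay lower with RNF4 and Dox than in every RING mutant library, where 2.27% of all genes did. RAB27A was 16.9, 20.2 and 18.0 against 26.8, 22.7 and 20.3 CPM (log2 change -0.34 ± 0.19, SE), and MYO5A was 57.4, 71.5 and 58.6 against 93.9, 72.3 and 77.7 CPM (-0.38 ± 0.21). The gap was small for both genes, and neither had an unadjusted p under 0.05. Of the 24 genes 1 lay wholly higher instead, BACE2, a protease that processes PMEL, with 87.3, 103.7 and 85.0 against 71.4, 80.9 and 73.6 CPM, named after its values were seen. In this comparison 4.98% of all genes had groups that did not overlap.

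MITF target genes outside pigment synthesis gave 10 of 21, 15 of 21 and 7 of 21 above 0 in the same order, with medians of -0.05, 0.11 and -0.14. All genes gave 44.3%, 55.8% and 43.2% above 0, and the list 47.6%, 71.4% and 33.3%. RRAGD, a lysosomal GTPase known as a target of MITF, was 13.4, 12.3 and 6.95 CPM in the RNF4 plus Dox group, 5.33, 8.27 and 3.98 CPM in the mutant group, and 9.58, 12.3 and 6.37 CPM in the no-Dox group. The first 2 of these groups overlapped through T13 and T6. Its log2 change for RNF4 with Dox against the mutant was 0.89 ± 0.38 (SE, edgeR unadjusted p = 0.0416). The comparisons share libraries, so their medians are not independent of each other.

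Among 15 genes of the MITF-low state, 10 had a log2 change above 0 for RNF4 with Dox against no Dox (66.7%, where all genes gave 44.3%), with a median of 0.14. Against the mutant 7 of 15 were above 0 (46.7%, all genes 55.8%), with a median of -0.0030, and for the mutant against no Dox 10 of 15 (66.7%, all genes 43.2%). The 2 transcription factors POU3F2 (BRN2) and SOX2 had the smallest p-values of this list in the mutant group. POU3F2, a neural factor linked to invasive melanoma, was 0.958, 3.66 and 1.38 CPM in the no-Dox group, 2.44, 1.43 and 0.951 CPM in the RNF4 plus Dox group, and 0.356, 0.831 and 0.511 CPM in the mutant group, which lay below every other library. Of all genes, 2.58% were wholly lower in the mutant than in the no-Dox group, and 4.98% did not overlap between RNF4 plus Dox and the mutant. Its log2 changes were -1.81 ± 0.62 (SE) for the mutant against no Dox and 1.48 ± 0.62 for RNF4 with Dox against the mutant (edgeR unadjusted p = 0.0153 and 0.0384). SOX2 was 2.53, 7.12 and 6.76 CPM in the no-Dox group and 3.11, 4.75 and 3.31 CPM in the RNF4 plus Dox group. In the mutant group it was 2.31, 1.84 and 2.90 CPM. The mutant and no-Dox groups overlapped through T14, with a log2 change of -1.23 ± 0.42 (edgeR unadjusted p = 0.0161). The RNF4 plus Dox group lay wholly above the mutant group, with a log2 change of 0.67 ± 0.42 (edgeR unadjusted p = 0.146). In that comparison 2 of the 15 genes lay wholly higher and 1 wholly lower.

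MITF's own relatives and regulators moved little. Of 12 genes, 6 had a log2 change above 0 for RNF4 with Dox against no Dox, with a median of -0.01, and the changes in all 3 comparisons lay between -0.67 and 0.40. ATF4, a stress factor that represses MITF, was 407, 315 and 243 CPM in the no-Dox group, 433, 324 and 281 CPM in the RNF4 plus Dox group, and 281, 275 and 230.2 CPM in the mutant group. T1 and T2, the libraries with the lowest scaling factors, were its highest in their groups.

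The other genes with the smallest p of their lists had changes close to their errors. For RNF4 plus Dox against no Dox these were the semaphorin SEMA6A (log2 change -0.37 ± 0.26, SE), the phosphatase ACP5 (0.31 ± 0.21), the cystine transporter SLC7A11 (0.21 ± 0.18), TFEC, a relative of MITF (-0.67 ± 0.56), and AXL (0.39 ± 0.28). SEMA6A lay lower in all 3 RNF4 plus Dox libraries (7.56, 7.66 and 7.11 CPM) than in the no-Dox group (7.80, 11.1 and 9.90 CPM), by little in T1, where 1.44% of all genes lay wholly lower. Against the mutant they were the amino acid transporter SLC1A4 (0.88 ± 0.50) and TFEB, another relative of MITF (-0.34 ± 0.30). For the mutant against no Dox they were TFAP2B, an AP-2 factor (1.94 ± 1.21), the melanosome trafficking GTPase RAB32 (-0.87 ± 0.65) and USP13, a deubiquitinase described for MITF (0.17 ± 0.24). RAB32 was 82.6 CPM in T1 and 48.5 CPM in T2 against 15.3 to 24.0 CPM in the other 7 libraries, so it followed the 2 libraries with the lowest scaling factors.

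Across the 9 libraries, 17 relations of MITF or SOX10 with the other genes were computed on log2 CPM with a prior count of 0.5, each with a two-sided exact permutation test, and none passed Benjamini-Hochberg adjustment. MITF ran opposite to MLANA, with Pearson's r = -0.72 (exact permutation p = 0.0293, adjusted 0.410) and Spearman's rho = -0.73 (exact permutation p = 0.0311, adjusted 0.265). Without T4 and T5, the libraries farthest from the median of MITF, r was -0.54, and on deviations from group means it was -0.74. SOX10 ran opposite to TYR, with r = -0.66 (exact permutation p = 0.0615, adjusted 0.410) and rho = -0.76 (exact permutation p = 0.0278, adjusted 0.265), and without T2 and T3 r was -0.76. That relation rests on 3 libraries with TYR counts, and the other 6 are tied at 0. MITF and SOX10 gave r = 0.37 (exact permutation p = 0.322, adjusted 0.668) and rho = 0.43 (exact permutation p = 0.250, adjusted 0.708). MITF and PAX3 gave r = 0.62 (exact permutation p = 0.0724, adjusted 0.410) and rho = 0.63 (exact permutation p = 0.0760, adjusted 0.431), and r fell to 0.21 without T4 and T5. With TYRP1, DCT and PMEL, MITF had r of -0.35, -0.35 and -0.32, and without T14 r was -0.064, -0.079 and 0.0070.

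The genes most like MITF and SOX10 over the 9 libraries were named by Pearson's r of log2 CPM among 15471 genes. For MITF they were GFER (r = 0.955), FBXO27 (0.954) and TP53BP2 (0.953), whose levels also peaked in T4 and T5. For SOX10 they were ETV1 (0.966), WDR45 (0.946) and BMERB1 (0.946), all highest in T3 and lowest in T2. ETV1, an ETS transcription factor, was 53.4, 62.4 and 61.8 CPM in the no-Dox group, 43.3, 55.6 and 46.2 CPM in the RNF4 plus Dox group and 65.4, 60.9 and 48.0 CPM in the mutant group. It overlapped between groups through T1 and T5. As the best of 15471 over 9 libraries, these values are a description and carry no test.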

How the data were processed

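RNA from 9 pooled tumour pairs was sequenced as stranded, poly(A)-selected libraries with single reads of 50 bases from 800 ng of RNA each, per the labels. Per the submitters' processing notes, the tools were TopHat2 2.0.13, HTSeq 0.6.0 and DESeq2 1.10.1 with the build GRCh38. The authors deposited whole-number counts per gene, not normalised, and the same counts stand in 3 tables. The deposited log2 fold changes and adjusted p-values are the authors' own comparisons, and which tool made them is not given in the sources used here. Their 9 normalised columns per table were not used.

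The count columns are named T1 to T14 by group but carry none of the titles' replicate numbers, so columns were assigned to groups only. The reads were aligned to the human genome, per the same notes, so reads of mouse cells that match human genes cannot be told apart from human reads. Symbols and coordinates came from GENCODE 29 by Ensembl identifier (52338 of 57820 found). The 10 genes and all gene lists were chosen with earlier results of these data known. All 10 are named, with RNF4, the 2 genes of each pathway list with the smallest p in each comparison, the 3 genes most like MITF and SOX10, and the highest markers.

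Counts were fitted in R 4.3.3 with edgeR 4.0.16 (filterByExpr, TMM, quasi-likelihood, all 9 libraries, 3 group means), two-sided, with Benjamini-Hochberg adjustment over 18618 genes. The SE of a log2 change is its size over the root of F. Libraries held 16416426 to 28934692 counts, and a count of 0 allows up to 3 counts. Intervals are exact 95% binomial intervals and cover counting error only. The fit was also run on simulated counts whose spread depended on level alone, with no library set apart as T14 is. That run cannot show how the fit handles a gene led by a single library, and no result here rests on it. DESeq2 1.42.0, RLE factors, other filters, a block for runs of column numbers, the 6 libraries compared and leaving out libraries were alternatives, and leaving out T14 without the filter was added after the data were seen. A gene that the naming rule picked from the list of MITF regulators is not reported here, though it is counted in that list.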

Additional observations from a re-analysis of the deposited data

How the results depend on the processing

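No paired analysis was possible because the count columns carry none of the replicate numbers of the titles. The block for runs of column numbers was taken from the T numbers in the column names (T1 to T3, T4 to T6 and T12 to T14). Each run held a library of every group, but the labels give no such pairing. No gene was called in the edgeR fit. Without the low-count filter 3, 38 and 109 genes were called for RNF4 plus Dox against no Dox, RNF4 plus Dox against the mutant and the mutant against no Dox, of the 10 genes 3 in the last (TYRP1, DCT and CITED1) and the same 3 for any difference. Without both the filter and T14, a setting chosen after seeing the data, the counts were 70, 156 and 171, with CITED1 as 1 of the 10 genes against the mutant, in the mutant against no Dox and for any difference. DESeq2 called 3 and 2 genes for RNF4 plus Dox and for the mutant against no Dox, and leaving out T1 and T2 together 1 gene in the latter, none of them among the 10. Leaving out 1 library gave 0 to 1 genes for RNF4 plus Dox against no Dox (1 without T6) and 0 elsewhere. The block for runs of column numbers, RLE factors, the 1 CPM filter and fits of the 6 libraries compared called 0.

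Log2 changes that turned sign are given as ranges over leaving out 1 library. For RNF4 plus Dox against no Dox they were -0.26 to 0.39 for MITF, -0.069 to 0.11 for PAX3, -0.33 to 0.29 for MLANA and -2.08 to 0.012 for CITED1. Against the mutant they were -0.11 to 0.43 for MITF, -2.66 to 0.018 for TYRP1, -2.21 to 0.062 for PMEL and -0.093 to 0.83 for OCA2. For the mutant against no Dox they were -0.29 to 0.18 for MITF, -0.25 to 0.13 for SOX10 and -0.47 to 1.81 for PMEL. Without T1 and T2, MLANA turned to 0.059 (RNF4 plus Dox against no Dox) and OCA2 to -0.10 (against the mutant). Without the filter and T14, PMEL turned to 0.023 against the mutant, and for the mutant against no Dox MITF turned to 0.013, SOX10 to 0.17 and PMEL to -0.43. The cause was not tested, except that the construction of the last setting removes T14. TYR, DCT, TYRP1 and OCA2 have few counts, which limits what can be read from them.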
